A study of Arabidopsis thaliana with 10 samples.

Results

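Seedlings that overexpress IBH1 were set directly against seedlings that carry an insertion in its close homologue IBL1. The IBH1 overexpressor is homozygous for 35Spro:IBH1-GFP, a fusion to green fluorescent protein driven by the strong, near-constitutive 35S promoter of a plant virus. The ibl1 mutant is homozygous for the T-DNA insertion SALK_119457. Both lines and the unmodified wild type Col have the Col-0 background. Entire seedlings, untreated, were harvested 10 days after sowing from agar under a photoperiod of 16 h at 22 °C. How many independent transformants stand behind the overexpressor is not given in the sources used here. Each genotype has 2 poly(A) RNA sequencing libraries, so that 4 of the 10 libraries of the study enter the comparison. The genes described are those with an FPKM of 1 or more in at least 1 of the lines, 20780 of the 34047 genes in the deposited tables (61.0%). FPKM is a level scaled to transcript length and library size.

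IBH1 belongs to the helix-loop-helix proteins that lack a working DNA-binding region. Such proteins pair with true basic helix-loop-helix factors, among them HBI1 and the BEE and CIB proteins, and keep them from DNA. The small PRE proteins in turn pair with IBH1 and release those factors, so that brassinosteroid, gibberellin, auxin and light signals can drive cell elongation through genes of the cell wall. IBL1 is known for a similar role in restraining elongation.

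The authors deposited each line against Col, with 1 FPKM per genotype over its libraries. Here the FPKM of the IBH1 overexpressor was divided by that of the ibl1 mutant, and log2 differences are in that direction, positive where the IBH1 overexpressor was higher. The figure after ± is a standard error (SE). It was built from the errors implied by the authors' statistics for the 2 comparisons with Col, and it counts the error of Col in both. A gene was called where the two-sided normal p of the difference over its SE, with Benjamini-Hochberg adjustment over 19601 testable genes, was below 0.05. Below, a gene described as higher or lower was called unless stated otherwise, and 95% intervals are built from the SE. These intervals and calls rest on a normal approximation with 2 libraries per genotype and on the authors' errors. With values per genotype alone, the spread between libraries cannot be shown. The labels speak of biological duplicates without naming separate cultures, and a protocol text speaks of independent biological replicates in a larger number. How much spread between separate cultures the errors hold is therefore unknown, as is the depth per library.

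Promoter sequences are shown first for 4 of the genes that differed clearly, with the E-box CANNTG in capitals, the core that basic helix-loop-helix factors bind. CANNTG reads the same on both strands, and it includes the G-box CACGTG. GASA6 and EXPA8 were lower in the IBH1 overexpressor, and ADH1 and LBD41 were higher. Each sequence is the 250 bases before the gene's annotated start in the RefSeq annotation of TAIR10.1, written 5′ to 3′ on the gene's strand. They lie at chr1:28052780-28053029 (plus strand, GASA6), chr2:16950706-16950955 (minus strand, EXPA8), chr1:28975005-28975254 (plus strand, ADH1) and chr3:538127-538376 (minus strand, LBD41). The gene coordinates printed below are the authors' and differ from that annotation. The start coordinate was the same in 11003 of 31294 matched genes. None of the 4 windows abuts the gene as the authors placed it, and GASA6 begins there at 28053286.
GASA6: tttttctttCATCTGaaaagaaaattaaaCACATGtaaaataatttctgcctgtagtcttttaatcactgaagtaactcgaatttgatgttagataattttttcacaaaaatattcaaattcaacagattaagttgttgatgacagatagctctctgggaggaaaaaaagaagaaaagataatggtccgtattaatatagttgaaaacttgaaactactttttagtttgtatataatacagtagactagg
EXPA8: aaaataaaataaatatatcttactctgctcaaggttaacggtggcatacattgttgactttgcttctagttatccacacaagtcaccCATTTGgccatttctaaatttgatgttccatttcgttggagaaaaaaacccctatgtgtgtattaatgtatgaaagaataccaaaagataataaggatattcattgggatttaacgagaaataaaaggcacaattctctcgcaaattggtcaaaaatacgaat
ADH1: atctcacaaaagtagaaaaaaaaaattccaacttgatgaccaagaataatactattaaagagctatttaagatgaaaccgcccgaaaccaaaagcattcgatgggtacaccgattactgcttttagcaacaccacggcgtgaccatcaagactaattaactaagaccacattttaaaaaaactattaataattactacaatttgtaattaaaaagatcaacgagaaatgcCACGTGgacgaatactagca
LBD41: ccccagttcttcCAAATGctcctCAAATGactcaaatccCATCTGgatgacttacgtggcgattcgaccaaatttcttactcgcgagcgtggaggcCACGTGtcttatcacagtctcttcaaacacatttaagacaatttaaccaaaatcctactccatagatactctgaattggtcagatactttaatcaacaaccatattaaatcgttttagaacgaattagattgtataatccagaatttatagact

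The GASA6 window holds 2 E-boxes, the EXPA8 window 1, the ADH1 window 1 and the LBD41 window 4. The single E-box of ADH1 and 1 of the 4 of LBD41 are G-boxes. Most promoters hold such letters. Among called genes with a window, CANNTG was found in 57.9% of 378 that were higher and in 59.5% of 257 that were lower, and it was found in 56.2% of the 18904 windows of all tested genes. CACGTG was found in 8.99% of the higher genes, 7.39% of the lower genes and 7.19% of all. A match describes the letters in the window and is not a binding site.

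The transgene and the insertion were checked first. IBH1 (AT2G43060, chr2:17909185-17910082 in the TAIR10 coordinates of the files) had 5148 FPKM in the IBH1 overexpressor, 17.4 FPKM in the ibl1 mutant and 22.2 FPKM in Col. The difference between the lines was 8.21 ± 0.31 on the log2 scale, or 296-fold, with a 95% interval of 7.60 to 8.82. The transgene's reads cannot be separated from those of the native gene. IBL1 (AT4G30410, chr4:14871109-14872176) had 1.84 FPKM in the IBH1 overexpressor, 1.87 FPKM in the ibl1 mutant and 7.70 FPKM in Col. The IBL1 values lie close together, but the error is wide. The log2 difference was -0.03 ± 0.90, with a 95% interval of -1.80 to 1.74, which does not show that IBL1 was equally low. What IBL1 protein each line keeps was not measured, so a difference between the lines cannot be assigned to IBH1 alone.

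Some expansins, other cell wall genes and water channels were lower in the IBH1 overexpressor, down to a 20.4-fold difference for the expansin EXPA8, while some genes of the low-oxygen response, iron and phosphate supply and heat shock were higher. The low-oxygen list was drawn up after the values had been seen. The other gene lists were chosen with earlier results of these data known. Counts for any list below are therefore a description and no independent evidence. In all, 650 of 19601 tested genes were called, 3.32% of them. There were 388 higher genes (1.98%) and 262 lower genes (1.34%). The difference was at least 2-fold for 108 higher genes and for 92 lower ones, and the median absolute log2 difference was 0.73 for higher and 0.75 for lower genes. The median over all tested genes was 0.08, so the lines differ slightly in scale. With that shift subtracted, 594 genes were called (3.03%), 256 of them higher and 338 lower. Higher genes then made up 43.1% of calls, against 59.7% without the subtraction. The majority direction therefore depends on the scaling, although 518 genes were called both ways. With smaller errors, in which the squared SE is multiplied by 0.5 as if Col carried as much of it as the line, 2209 genes were called (11.3%), 1446 higher (7.38%) and 763 lower (3.89%). Called genes were also more abundant than most, with a median level of 56.3 FPKM over both lines against 12.9 FPKM for all tested genes. The share called over all tested genes is therefore no matched background for lists of abundant genes.

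**Figure D1:**
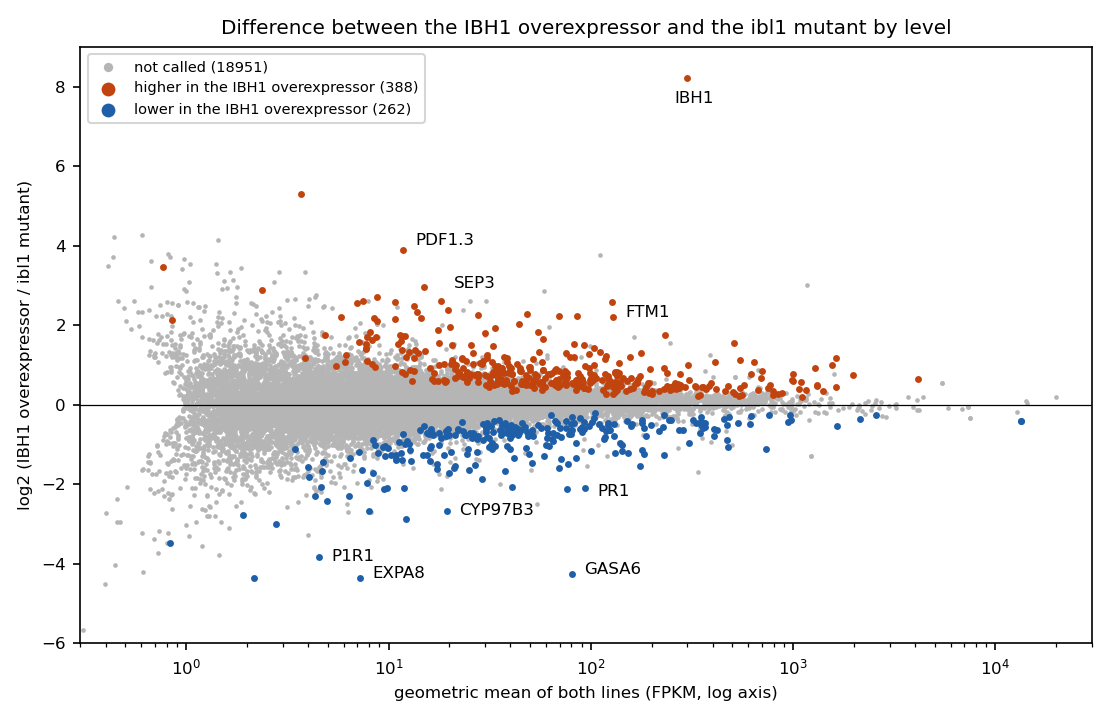
Each point is a tested gene, with the geometric mean FPKM of both lines on a log axis and the log2 difference of the IBH1 overexpressor over the ibl1 mutant. Orange points are the 388 genes called higher, blue points the 262 called lower and grey points the 18951 not called; IBH1 stands alone at 8.21, and EXPA8 and GASA6 are near the bottom. Of the tested genes 7 lie outside the axes, 1 of them called.

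Col shows which line stands apart for a given gene. Among genes called lower, the IBH1 overexpressor was farther from Col than the ibl1 mutant in 234 of 262 (89.3%). Among genes called higher, it was farther in 208 of 388 (53.6%), and the ibl1 mutant in 180. Over all tested genes the overexpressor was farther in 53.6%. Col enters both distances, and these shares are a description with no test. They were taken without subtraction of the median shift, on which the set of higher calls depends, and were not computed with it.

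The lower genes with the largest differences were mostly close to Col in the ibl1 mutant. EXPA8 (AT2G40610, chr2:16948863-16950557), an expansin that loosens the cell wall, had 1.61 FPKM in the IBH1 overexpressor, 32.7 FPKM in the ibl1 mutant and 41.0 FPKM in Col (log2 -4.35 ± 0.59, 95% interval -5.51 to -3.18). GASA6 (AT1G74670, chr1:28053286-28054149), a gibberellin-induced peptide of cell elongation, had 18.4 FPKM in the IBH1 overexpressor, 351 FPKM in the ibl1 mutant and 305 FPKM in Col (log2 -4.25 ± 0.27, 95% interval -4.78 to -3.72). These are differences of 20.4-fold and 19.0-fold. P1R1 (AT5G57780), annotated as a transcription factor, had a log2 difference of -3.83 ± 0.84, and its 17.2 FPKM in the ibl1 mutant lay close to the 16.8 FPKM in Col.

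CYP97B3, a cytochrome P450 of the carotene hydroxylase family, had 7.71 FPKM in the IBH1 overexpressor, 48.8 FPKM in the ibl1 mutant and 50.1 FPKM in Col. FUM2, the cytosolic fumarase, had 4.55, 19.9 and 24.3 FPKM in the same order, and LUP1, a lupeol synthase, had 2.89, 14.2 and 13.6 FPKM. NEET, an iron-sulfur protein, had 36.4 FPKM in the IBH1 overexpressor, 158 FPKM in the ibl1 mutant and 144 FPKM in Col. For all 4 the ibl1 mutant lay near Col and the overexpressor well below both. The protein repair genes MSRB6 (log2 -2.43 ± 0.68) and PIMT2 (log2 -2.29 ± 0.63) and the glucosinolate gene AOP2 (log2 -2.07 ± 0.59) were lower too, though not with a pseudocount of 1 FPKM. PR1, a defence marker, ran otherwise, with 45.5 FPKM in the IBH1 overexpressor, 193 FPKM in the ibl1 mutant and 19.3 FPKM in Col, so that both lines exceeded Col and the mutant more so.

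Among higher genes, PDF1.3 (AT2G26010), a defensin, had 45.8 FPKM in the IBH1 overexpressor, 3.06 FPKM in the ibl1 mutant and 7.17 FPKM in Col (log2 3.90 ± 0.94, 95% interval 2.07 to 5.74). PDF1.3 has near-identical copies, among which reads can be split uncertainly. SEP3 (AT1G24260), a MADS-box gene of flower organ identity, had 44.9 FPKM in the IBH1 overexpressor, 7.32 FPKM in the ibl1 mutant and 5.49 FPKM in Col (log2 2.62 ± 0.48, 95% interval 1.68 to 3.56). None of the other 8 tested floral and flowering-time genes was called; SEP1 and SEP2, the closest relatives of SEP3, are not among them because their symbols matched several genes. The receptor kinase gene CRK30 had 18.6 FPKM in the IBH1 overexpressor, 3.03 FPKM in the ibl1 mutant and 4.59 FPKM in Col. RING1, a ubiquitin ligase of defence, had 26.3, 4.41 and 6.56 FPKM in that order.

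Transporter genes were also among the largest higher calls. SWEET1, a glucose transporter, had 39.4 FPKM in the IBH1 overexpressor, 10.2 FPKM in the ibl1 mutant and 17.1 FPKM in Col (log2 1.95 ± 0.37). UMAMIT28, of an amino acid exporter family, had 20.8, 6.19 and 12.8 FPKM in that order, and CYP81D8, a stress-induced cytochrome P450, had 15.3, 4.26 and 6.22 FPKM. In each of these 3 genes Col lay between the lines.

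**Figure D2:**
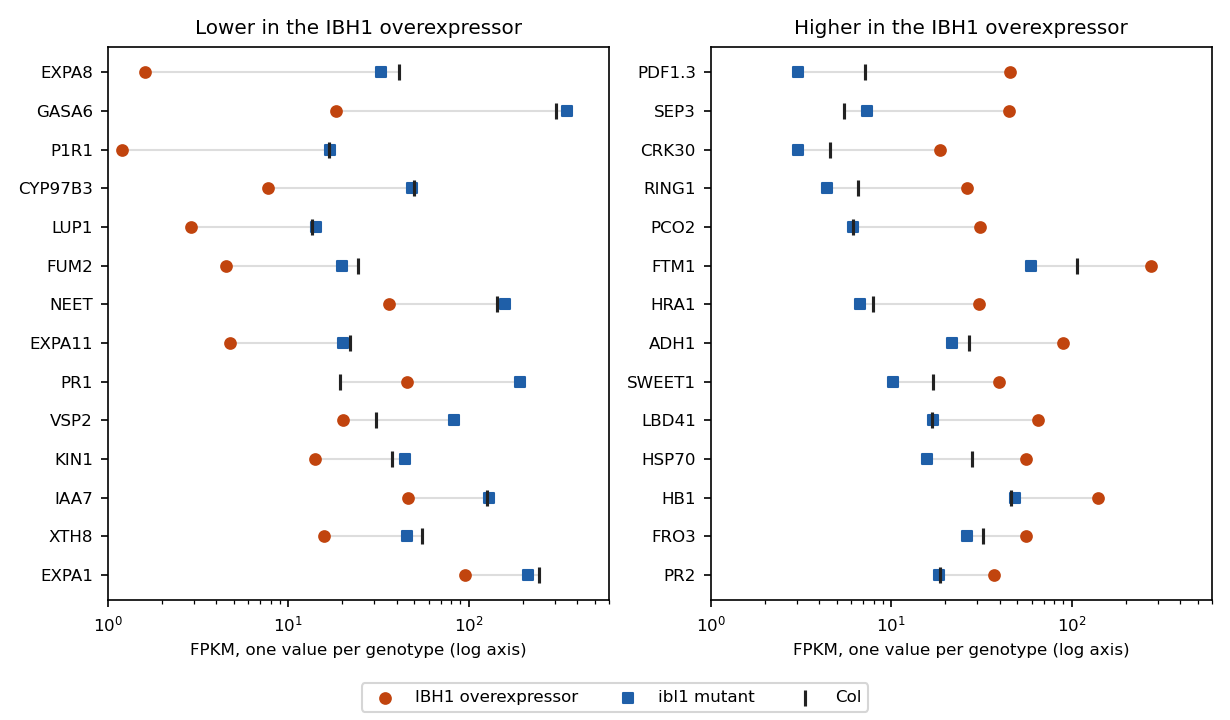
FPKM on a log axis for 14 genes lower and 14 genes higher in the IBH1 overexpressor, chosen among called genes to span the groups described; circles are the IBH1 overexpressor, squares the ibl1 mutant and vertical bars Col, 1 value per genotype. In most lower genes the square sits at the bar, as for CYP97B3 (48.8 and 50.1 FPKM), while for PR1 and VSP2 the square lies to the right of the bar.

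Of 8 genes of growth-restraining HLH proteins, relatives of IBH1, 3 were called lower, 0 higher and 5 not called, against 1.34% called lower among all tested genes. All 8 log2 differences were below 0, with a median of -1.49. AIF1, named for its binding to the PRE protein ATBS1, had 0.986 FPKM in the IBH1 overexpressor, 7.89 FPKM in the ibl1 mutant and 9.12 FPKM in Col (log2 -3.00 ± 0.87, 95% interval -4.71 to -1.29); the call is lost with a pseudocount of 1 FPKM. AIF4 had 10.4, 29.3 and 28.6 FPKM in that order (log2 -1.49 ± 0.35), and AIF3 had 36.3, 56.2 and 71.2 FPKM (log2 -0.63 ± 0.15). The shade-induced inhibitor gene PAR1 had 3.62 FPKM in the IBH1 overexpressor, 10.2 FPKM in the ibl1 mutant and 24.4 FPKM in Col. Both lines thus lay below Col for PAR1. PAR2, also shade-induced, had 4.89, 18.0 and 13.2 FPKM in that order. Between the lines, PAR1 (log2 -1.49 ± 0.58) and PAR2 (log2 -1.88 ± 0.69) were not called. Neither were HFR1, UPB1 and AIF2, with -1.46 ± 1.41, -2.02 ± 1.39 and -0.40 ± 0.25.

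The partners on the promoting side gave no called difference in RNA level. With 3.32% of all tested genes called, lists this short can easily hold 0 calls. Pairing of the proteins was not measured. HBI1, the factor best known as a target of IBH1, had 48.0 FPKM in the IBH1 overexpressor, 46.7 FPKM in the ibl1 mutant and 48.9 FPKM in Col (log2 0.04 ± 0.17, 95% interval -0.29 to 0.37). Of 10 tested HBI1, BEE and CIB genes 0 were called, with BEE3 at 0.91 ± 0.46 and BEE2 at -0.44 ± 0.20 as the extremes. CIB1 was not testable, at 3.05, 4.88 and 9.16 FPKM in the IBH1 overexpressor, the ibl1 mutant and Col. Of 5 tested PRE genes 0 were called, and 4 had differences above 0. PRE6 had 18.1 FPKM in the IBH1 overexpressor, 9.33 FPKM in the ibl1 mutant and 13.8 FPKM in Col (log2 0.96 ± 0.53).

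Among 7 phytochrome-interacting factor genes, PIF5 was higher by a small amount, at 48.5 FPKM in the IBH1 overexpressor, 37.7 FPKM in the ibl1 mutant and 56.2 FPKM in Col (log2 0.36 ± 0.11, 95% interval 0.14 to 0.58), a call lost when the median shift was subtracted. Of all tested genes 1.98% were higher. PIF4, which drives elongation in warmth and shade, had 9.74 FPKM in the IBH1 overexpressor, 10.6 FPKM in the ibl1 mutant and 33.2 FPKM in Col. The lines were not separated (log2 -0.12 ± 0.28, 95% interval -0.66 to 0.42), although both values lie far below Col. PRE4 had the same layout at 4.96, 5.42 and 22.6 FPKM, with a much wider interval of -3.07 to 2.81 between the lines.

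**Figure D3:**
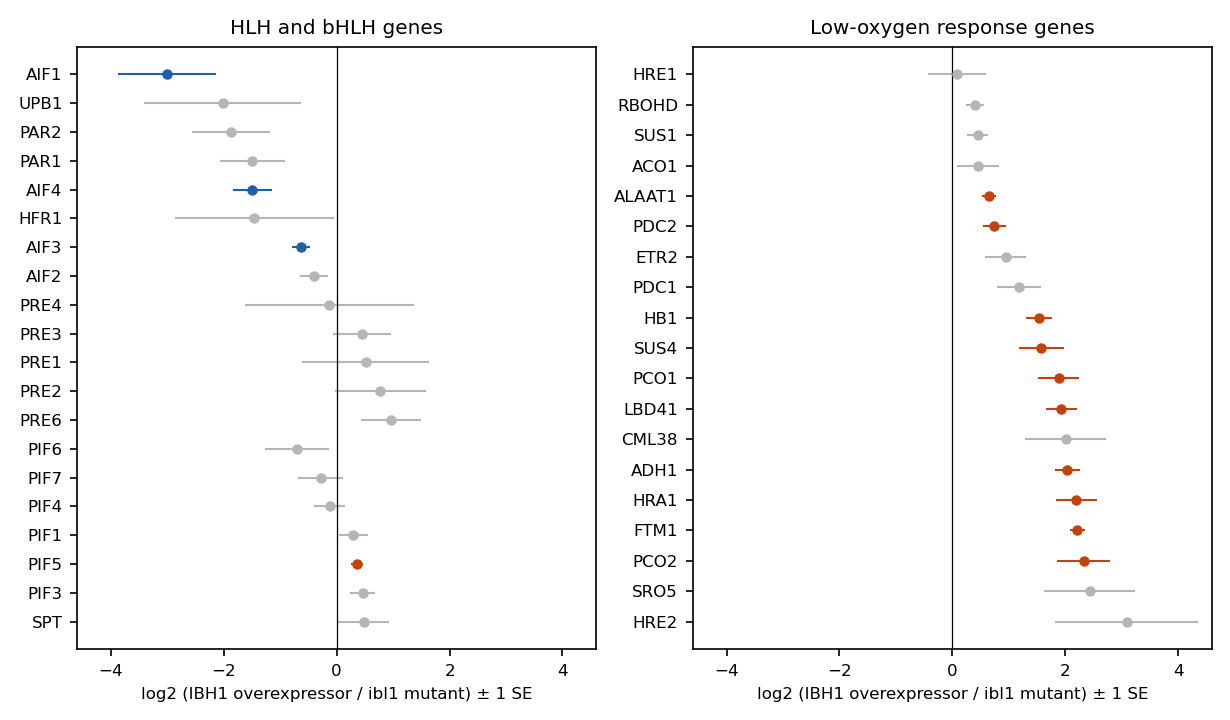
Log2 difference of the IBH1 overexpressor over the ibl1 mutant with 1 SE on each side, for growth-restraining HLH, PRE and phytochrome-interacting factor genes in the left panel and low-oxygen response genes in the right panel; orange is called higher, blue called lower and grey not called. The 8 restraining genes lie left of 0 and the 19 low-oxygen genes right of it. The low-oxygen list was drawn up after the values had been seen, and the other lists were chosen with earlier results of these data known.

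In the lists of hormone synthesis and signalling, the calls are to be read against 3.32% of all tested genes. Of 11 brassinosteroid synthesis and inactivation genes 0 were called, and the most abundant, DWF1, had 223 FPKM in the IBH1 overexpressor, 247 FPKM in the ibl1 mutant and 282 FPKM in Col. Of 11 receptor and signalling genes 1 was lower, the transcription factor BES1 (log2 -0.32 ± 0.08, 95% interval -0.48 to -0.17). Of 16 tested genes of gibberellin metabolism, receptors and DELLA proteins 0 were called. IAA7, a repressor of auxin responses, was the single call among 27 Aux/IAA and GH3 genes, with 45.9 FPKM in the IBH1 overexpressor, 129 FPKM in the ibl1 mutant and 126 FPKM in Col (log2 -1.49 ± 0.13, 95% interval -1.74 to -1.24). Of 14 tested SAUR genes 0 were called, with a median of -0.41.

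Cell wall genes held many lower calls, against 1.34% of all tested genes. Among 22 tested expansins, 7 were lower and 0 higher, with a median log2 difference of -0.67. EXPA1 had 95.9 FPKM in the IBH1 overexpressor, 214 FPKM in the ibl1 mutant and 246 FPKM in Col (log2 -1.16 ± 0.12, 95% interval -1.40 to -0.91). EXPA11 (log2 -2.09 ± 0.42), EXPA5 (-1.10 ± 0.26), EXPB3 (-0.92 ± 0.16), EXPA6 (-0.74 ± 0.15) and EXPA4 (-0.69 ± 0.15) were lower as well. EXPA7 and EXPA18, known from root hairs, had log2 differences of -0.08 ± 0.36 and 0.72 ± 0.41 and were not called; both were picked after their values were seen.

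The xyloglucan-remodelling XTH enzymes split, with 5 lower and 1 higher of 26 tested and a median of -0.10. XTH8 had 15.8 FPKM in the IBH1 overexpressor, 45.3 FPKM in the ibl1 mutant and 55.4 FPKM in Col (log2 -1.52 ± 0.26). XTH17 (log2 -1.41 ± 0.39), XTH18 (-1.26 ± 0.37), XTH7 (-0.96 ± 0.16) and XTH4 (-0.67 ± 0.11) were lower too, XTH18 not with a pseudocount of 1 FPKM, and XTH31 was higher by 0.64. Among 14 fasciclin-like arabinogalactan protein genes, whose products sit at the cell surface, 4 were lower and 13 had differences below 0. FLA9 had 66.4 FPKM in the IBH1 overexpressor, 149 FPKM in the ibl1 mutant and 199.9 FPKM in Col (log2 -1.17 ± 0.15). The 13 tested genes of cellulose synthesis, COBRA and KORRIGAN gave 0 calls, and KOR had 139, 149 and 155 FPKM in that order.

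Aquaporins, the water channels of the plasma membrane (PIP) and the vacuole membrane (TIP), had 9 lower and 0 higher calls among 18 tested genes, and 17 had differences below 0. Among all tested genes 1.34% were lower, a share not matched for level. Together the listed aquaporins summed to 3149 FPKM in the IBH1 overexpressor, 4676 FPKM in the ibl1 mutant and 5358 FPKM in Col. DELTA-TIP had 329 FPKM in the IBH1 overexpressor, 685 FPKM in the ibl1 mutant and 925 FPKM in Col (log2 -1.06 ± 0.10, 95% interval -1.26 to -0.86). PIP3 had 347, 642 and 683 FPKM in that order (log2 -0.89 ± 0.10), and PIP1C had 272, 443 and 510 FPKM (log2 -0.71 ± 0.10). TIP2;2 (-0.63 ± 0.17) and PIP2B (-0.52 ± 0.13) were lower as well. PIP genes are similar in sequence, so the share of a single member is uncertain.

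GASA peptide genes followed, with 3 of 4 tested called lower, against 1.34% of all tested genes. Beside GASA6, GASA1 had 143 FPKM in the IBH1 overexpressor, 246 FPKM in the ibl1 mutant and 215 FPKM in Col (log2 -0.78 ± 0.16). GASA4 had 294, 437 and 412 FPKM in that order (log2 -0.57 ± 0.11).

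**Figure D4:**
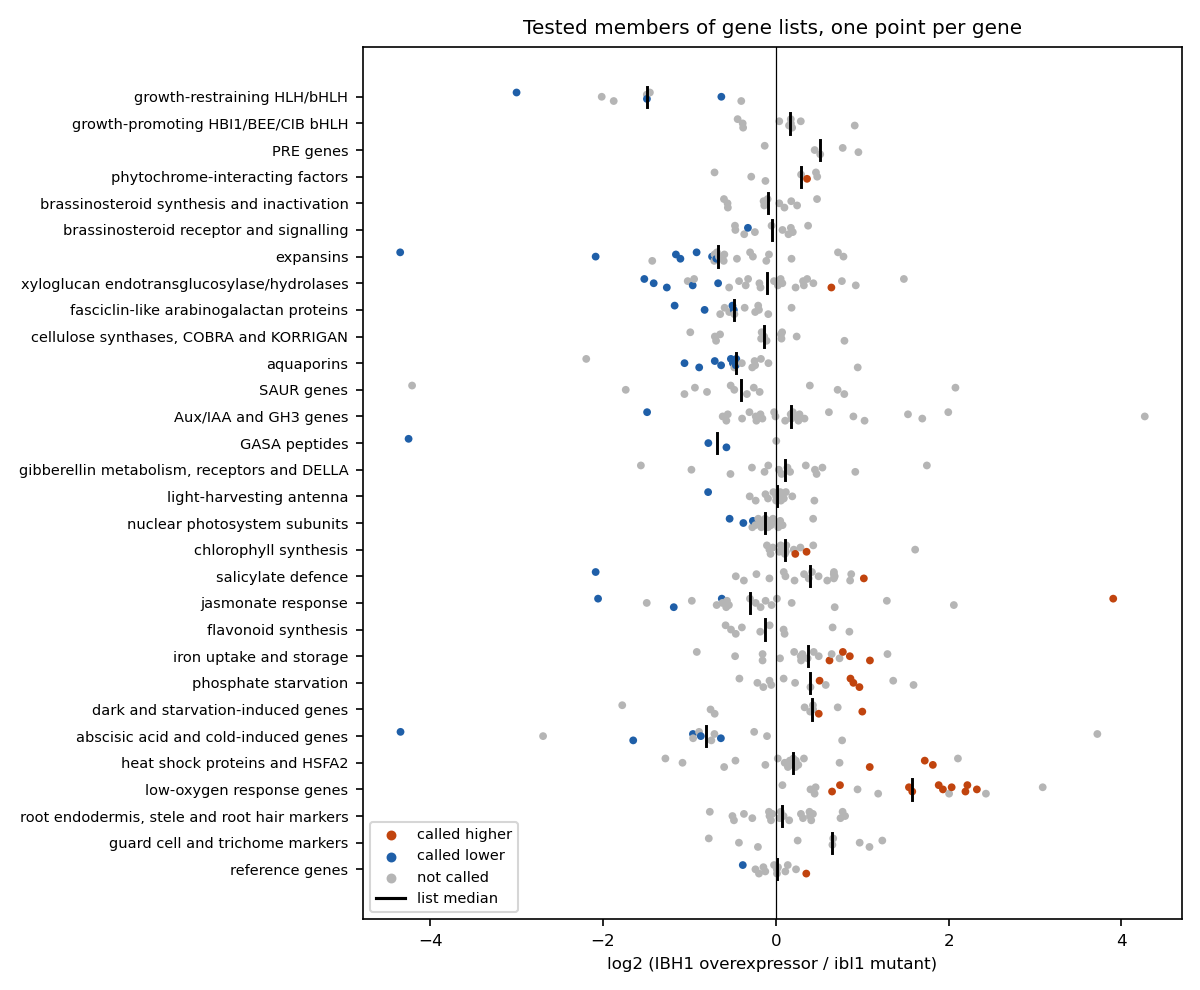
Each point is a tested member of a gene list and its log2 difference of the IBH1 overexpressor over the ibl1 mutant; orange is called higher, blue called lower, grey not called, and the black bar is the list median. Expansins (median -0.67), aquaporins (-0.47) and abscisic acid and cold-induced genes (-0.81) lie to the left, and low-oxygen response genes (1.58) to the right. The low-oxygen list was drawn up after the values had been seen, and the other lists were chosen with earlier results of these data known. The position of a list is therefore no independent evidence.

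Antenna transcripts had similar sums in the lines, below that of Col. The 18 genes of the light-harvesting antenna summed to 47405 FPKM in the IBH1 overexpressor, 46636 FPKM in the ibl1 mutant and 77119 FPKM in Col. The median log2 difference between the lines was 0.01. LHCB2.3 was the single call, with 310 FPKM in the IBH1 overexpressor, 534 FPKM in the ibl1 mutant and 745 FPKM in Col (log2 -0.78 ± 0.11, 95% interval -0.99 to -0.57); the LHCB2 genes are near-identical, so its value apart from its copies is uncertain. Of 21 nuclear photosystem subunit genes 3 were lower, PSAN (log2 -0.54 ± 0.10), PSBO2 (-0.38 ± 0.10) and PSBP-1 (-0.27 ± 0.03), against 1.34% of all tested genes. These 3 genes lie far above the median level of tested genes, 12.9 FPKM, so that share is no matched background for them. Of 17 chlorophyll synthesis genes 2 were higher, HEMB1 (0.36 ± 0.08) and PORB (0.23 ± 0.05), against 1.98% of all tested genes. PORB was not called once the median shift was subtracted (0.15). In whole seedlings, fewer cells of a type and less RNA per cell cannot be told apart.

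Of the genes that plants induce at low oxygen, 10 were higher in the IBH1 overexpressor, up to 5.02-fold for PCO2. This list of 20 textbook genes was drawn up after the values had been seen, so its counts are no independent evidence. All 19 tested members had log2 differences above 0, with a median of 1.58, and 10 were called higher and 0 lower. Among all tested genes 1.98% were higher. ADH1 (AT1G77120, chr1:28975394-28978743), the alcohol dehydrogenase of fermentation, had 89.4 FPKM in the IBH1 overexpressor, 21.8 FPKM in the ibl1 mutant and 26.9 FPKM in Col (log2 2.03 ± 0.22, 95% interval 1.60 to 2.47). The pyruvate decarboxylase gene PDC2 of the same pathway had 34.5, 20.6 and 25.4 FPKM in that order (log2 0.74 ± 0.20), while PDC1 was not called (log2 1.18 ± 0.39, 95% interval 0.43 to 1.94).

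The oxygen-sensing enzymes and regulators of this response were among the larger differences. PCO2, a cysteine oxidase that marks the ERF factors of the response for decay, had 31.0 FPKM in the IBH1 overexpressor, 6.18 FPKM in the ibl1 mutant and 6.13 FPKM in Col (log2 2.33 ± 0.47). PCO1 had 33.9, 9.18 and 12.7 FPKM in that order (log2 1.88 ± 0.37). LBD41 (AT3G02550, chr3:536505-537998), a LOB domain factor, had 65.3 FPKM in the IBH1 overexpressor, 17.1 FPKM in the ibl1 mutant and 16.8 FPKM in Col (log2 1.93 ± 0.27). HRA1, which damps the response, had 30.8, 6.74 and 7.96 FPKM (log2 2.19 ± 0.36), and the haemoglobin gene HB1 had 141, 48.3 and 46.1 FPKM (log2 1.54 ± 0.23).

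FTM1, a stearoyl-ACP desaturase gene, was the most abundant of the called low-oxygen genes, with 277 FPKM in the IBH1 overexpressor, 59.5 FPKM in the ibl1 mutant and 107 FPKM in Col (log2 2.22 ± 0.14, 95% interval 1.94 to 2.49). The sucrose synthase gene SUS4 (log2 1.58 ± 0.39) and the alanine aminotransferase gene ALAAT1 (0.65 ± 0.13) completed the calls. The ERF genes HRE1 and HRE2 had 0.08 ± 0.51 and 3.09 ± 1.27 and were not called. For PCO2, LBD41 and HB1 the ibl1 mutant lay near Col, and for FTM1 it lay below Col.

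Of 19 iron genes, 4 were higher and 0 lower, against 1.98% higher among all tested genes. FRO3, a ferric reductase, had 55.9 FPKM in the IBH1 overexpressor, 26.3 FPKM in the ibl1 mutant and 32.1 FPKM in Col (log2 1.09 ± 0.18). IRT1, the iron importer of the root surface, had 60.4 FPKM in the IBH1 overexpressor, 33.4 FPKM in the ibl1 mutant and 66.6 FPKM in Col (log2 0.86 ± 0.18), so that here the mutant stood apart from Col. OPT3, of iron transport in the phloem, had 153, 89.6 and 75.2 FPKM in that order (log2 0.78 ± 0.12), and the regulator gene BTS had a log2 difference of 0.62 ± 0.14. Of 15 phosphate starvation genes 4 were higher, GDPD1 (0.97 ± 0.20), PAP17 (0.90 ± 0.22), PS3 (0.86 ± 0.18) and SQD1 (0.51 ± 0.14), the last not called once the median shift was subtracted. GDPD1 had 48.6 FPKM in the IBH1 overexpressor, 24.8 FPKM in the ibl1 mutant and 54.8 FPKM in Col.

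For several other higher genes the ibl1 mutant lay below Col. Of 10 tested dark and starvation-induced genes 2 were higher, DIN1 and DIN10 (0.50 ± 0.11), against 1.98% of all tested genes. The dark-induced gene DIN1 had 147 FPKM in the IBH1 overexpressor, 73.3 FPKM in the ibl1 mutant and 197 FPKM in Col (log2 1.00 ± 0.14). The clock gene GI had 5.80, 2.58 and 6.66 FPKM in that order (log2 1.17 ± 0.32), the single call among 18 clock genes and one that a pseudocount of 1 FPKM ends. HSP70 (AT3G12580) had 56.0 FPKM in the IBH1 overexpressor, 15.9 FPKM in the ibl1 mutant and 28.0 FPKM in Col (log2 1.82 ± 0.19). With HSP90.1 (1.72 ± 0.28) and HSP101 (1.09 ± 0.32) it made 3 higher calls among 21 heat shock genes, of which HSP101 was not called with a pseudocount of 1 FPKM. For all 3 Col lay between the lines, so the IBH1 overexpressor was also above Col. HSP90.1 had 21.1 FPKM in the IBH1 overexpressor, 6.38 FPKM in the ibl1 mutant and 11.3 FPKM in Col. The other 18 heat shock genes were not called, and the list median was 0.20.

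Stress and defence genes went in both directions. Of 14 abscisic acid and cold-induced genes 5 were lower and 0 higher, with a median of -0.81, against 1.34% lower and 1.98% higher among all tested genes. RD22 had 100.4 FPKM in the IBH1 overexpressor, 195 FPKM in the ibl1 mutant and 186 FPKM in Col (log2 -0.96 ± 0.12). RD20, a caleosin of drought and abscisic acid, had 0.481, 9.78 and 3.77 FPKM in that order (log2 -4.34 ± 1.17); with a pseudocount of 1 FPKM the difference was -2.86 and was not called. KIN1 (-1.65 ± 0.44) and KIN2 (-0.87 ± 0.23), which are near-identical neighbours, and the dehydrin gene ERD14 (-0.64 ± 0.11) made up the rest. Of 21 jasmonate genes 3 were lower and 1, PDF1.3, higher. VSP2, a vegetative storage protein, had 20.1 FPKM in the IBH1 overexpressor, 83.6 FPKM in the ibl1 mutant and 30.7 FPKM in Col (log2 -2.06 ± 0.23). VSP1 (-1.18 ± 0.36) and the lipoxygenase gene LOX2 (-0.63 ± 0.11) were lower with the same layout, the mutant above Col, though VSP1 was not called with a pseudocount of 1 FPKM.

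The salicylate list of 20 tested genes held 1 lower call, PR1, and 1 higher call, PR2. Of all tested genes 1.34% were lower and 1.98% higher. PR2, a glucanase gene, had 37.3 FPKM in the IBH1 overexpressor, 18.4 FPKM in the ibl1 mutant and 18.6 FPKM in Col (log2 1.02 ± 0.29, 95% interval 0.45 to 1.58). PR1 and PR2 thus ran in opposite directions between the lines. The wound and defence regulators MYB51 (1.53 ± 0.46) and WRKY33 (1.03 ± 0.26) were higher, 2 of 9 tested in their list. MYB51 was not called once the median shift was subtracted (1.46) or with a pseudocount of 1 FPKM.

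Of 22 root markers 0 were called, against 3.32% of all tested genes. Their median log2 difference was 0.07, and they summed to 332.2 FPKM in the IBH1 overexpressor, 304 FPKM in the ibl1 mutant and 332.2 FPKM in Col. Of 9 guard cell and trichome markers 0 were called, with a median of 0.65 and sums of 78.1, 55.0 and 69.7 FPKM in that order. None of 15 seed storage and embryo genes reached 1 FPKM in either line. Of 13 reference genes, UBQ5 was higher (0.35 ± 0.11, not called once the median shift was subtracted) and TUA4 lower (-0.38 ± 0.10). Their part in the results was not tested. Because every difference rests on 1 pooled value per line and on errors borrowed from the comparisons with Col, small differences such as those of UBQ5 and PIF5 stand close to the threshold.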

How the data were processed

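Whole seedlings were sequenced from poly(A) RNA, with 2 libraries per genotype per the labels. A protocol text speaks of a larger number of independent biological replicates. Per the submitters' processing notes, the authors used CASAVA 1.8.2, TopHat 1.4.1 and Cuffdiff with TAIR10. Which Cuffdiff version, gene models, strand setting and scaling were used is not stated. The deposited values are FPKM, 1 per genotype, with a log2 fold change, a test statistic (score) and a p-value with its q-value for each line against Col, per the file headers. The authors' log2 fold change has Col on top, so its sign was turned. A two-sided normal p computed from the authors' score matches their p-value to within 2.76e-06.

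The SE of each line against Col was taken as the log2 fold change divided by the statistic. The squared SEs were summed, which counts the error of Col in both terms and so makes the SE larger than one with Col removed, if the authors' errors are right. Col values were the same in both tables except for 3 genes. Of the members, 1179 were not tested: 466 are listed at 0 in 1 line, and 713 lack a usable statistic. An exact 0 can be a failed estimate, so no fold is given there. Python 3.11.15, pandas 2.3.3, numpy 2.4.6 and SciPy 1.17.1 were used. The calculation was also run on simulated data, drawn with normal noise from the same errors that it uses. That run cannot check those errors or the normal approximation. Alternatives were 0.5 times the summed squared errors, subtraction of the median, other filters on low FPKM and pseudocounts of 0.1 and 1.

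Symbols and promoters come from the TAIR10.1 RefSeq annotation, which holds 31294 of the 34047 gene IDs (91.9%); gene coordinates are those of the files. The members and the 37 gene lists were chosen with earlier results of these data known. The genes named were drawn from IBH1 and IBL1, the 12 largest called differences with a symbol in each direction at 1 FPKM or more in both lines, up to 5 called members of each list (or its most abundant member), the members of the 4 HLH lists and the 5 genes with the highest level in 1 line that are listed at 0 in the other; not every gene the rule allows is printed, and other genes were picked after their values were seen. From the lists, 7 members were dropped because their symbol led to another gene, 13 listed names (SEP1, SEP2, RGA, RAB18 and GC1 among them) had no match or several and were left out, and the list of cytosolic ribosomal proteins matched 8 genes, of which 5 were tested and 0 called.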

Additional observations from a re-analysis of the deposited data

How the results depend on the processing

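No paired analysis was possible because the tables give 1 value per genotype and none per library; for the same reason no replicate could be left out. With 0.5 times the summed squared errors 2209 genes were called (1446 higher and 763 lower) in place of 650. Without adjustment, 2202 genes had a p below 0.05 under the summed errors. Requiring 1 FPKM in both lines gave 643 calls, 5 FPKM in at least 1 line gave 694, and no filter gave 647. At least a 2-fold difference, with no test, was seen in 1777 of 20314 genes above 0 in both lines, in 1028 when both lines had to reach 1 FPKM, in 2113 with a pseudocount of 0.1 and in 1288 with a pseudocount of 1. Of 137 named genes, 130 kept direction and call after median subtraction and 6 lost the call (PIF5, PORB, SQD1, MYB51, UBQ5 and ATCG00350), while HBI1 turned to -0.036, a difference that was not called either way. A pseudocount of 1 ended 11 calls (MSRB6, PIMT2, AOP2, AIF1, PIF5, XTH18, VSP1, GI, RD20, HSP101 and MYB51). Among lists with 0 calls, the smaller errors gave 1 higher and 1 lower call for the HBI1, BEE and CIB genes, 1 and 1 for root markers, 2 and 0 for guard cell and trichome markers, 4 and 0 for mitochondrial genes, 1 and 2 for gibberellin genes, 0 and 1 for cellulose genes, 1 and 0 for cytosolic ribosomal protein genes, and 0 for the PRE, brassinosteroid synthesis, SAUR and flavonoid lists. For the low-oxygen list they gave 17 and 0. Depth per library is unknown, and low genes such as IBL1 have errors too wide to compare.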

Other observations

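Of 95 tested chloroplast genes 3 were higher and 1 lower, against 1.98% and 1.34% of all tested genes, and the lower one, ATCG00020, had 121 FPKM in the IBH1 overexpressor, 267 FPKM in the ibl1 mutant and 166 FPKM in Col (log2 -1.15 ± 0.13). ATCG00330 had 175, 70.0 and 138 FPKM in that order (log2 1.32 ± 0.39). Of 52 tested mitochondrial genes 0 were called. The libraries were made from poly(A) RNA, and how well they capture organelle transcripts was not tested. Of 10 flavonoid genes 0 were called, with CHS at 258, 241 and 266 FPKM in the IBH1 overexpressor, the ibl1 mutant and Col.

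Some called genes fall outside the rule for named genes and were picked after their values were seen. AT2G17850 had 23.2 FPKM in the IBH1 overexpressor, 0.584 FPKM in the ibl1 mutant and 2.54 FPKM in Col (log2 5.31, called higher), second to IBH1 in size. AT3G16670 had 311 FPKM in the IBH1 overexpressor, 51.4 FPKM in the ibl1 mutant and 78.7 FPKM in Col. HAK5, a potassium importer of roots, had 0.249, 2.79 and 3.01 FPKM in that order. The gene HEI10 of meiotic crossing-over had 6.42, 0.865 and 6.51 FPKM, so that the mutant alone was low. HAK5 in the IBH1 overexpressor, and AT2G17850 and HEI10 in the ibl1 mutant, lay below 1 FPKM. The calls of these genes were not checked with a pseudocount. AT2G01021 had the highest value of all, at 1381660 FPKM in the IBH1 overexpressor, 1080900 FPKM in the ibl1 mutant and 1261560 FPKM in Col (log2 0.35 ± 0.11, called higher).

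The 5 highest genes listed at 0 in 1 line have no fold. AT3G41768 had 13590 FPKM in the IBH1 overexpressor, is listed at 0 in the ibl1 mutant and had 13699 FPKM in Col, and AT2G20722 had 690.2, 0 and 596 FPKM in that order. ATCG00460 had 630.2 FPKM in the IBH1 overexpressor and is listed at 0 in the ibl1 mutant and in Col. ATCG00110 and AT1G15090 are listed at 0 in the IBH1 overexpressor and in Col, and had 1188 and 849 FPKM in the ibl1 mutant.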
